A study of Mus musculus with 236 samples.

Results

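A set of 10 genes of the Wnt pathway was followed in mouse embryonic stem cells that had lost an inhibitor of GSK3, the kinase that marks β-catenin for destruction. The 10 genes were Wnt3, Porcn, Lgr4, Axin2, Nkd1, Ctnnb1, Lef1, Tcf7, Tcf7l1 and Tcf7l2, and all 10 had a row among the 39300 of the deposited expression table. The cells came from 1 female line, derived from blastocysts of a C57BL/6J mother and a CAST/EiJ father. They had been grown in serum with LIF, the GSK3 inhibitor CT99021 and the MEK inhibitor PD0325901, and differentiation began when LIF and both inhibitors were withdrawn together, so a response to loss of any 1 of the 3 cannot be told apart from the others. The method, HiRES, reads chromatin contacts and RNA from the same single cell, and the RNA is used here. Both groups were unmodified cells on fibronectin in medium with serum, and they differed in time: day 2.5 after withdrawal (d25) and day 0.5 after withdrawal (d05). Each library held 1 or 2 cells, and all libraries but 120, which were of day 0.5, were of day 2.5. Cells still kept in the inhibitors were not analysed here, so day 0.5 is an early time after withdrawal and not an untreated control.

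RNA counts were deposited for 406 of these cells, 50.5% of them from day 2.5 and 49.5% from day 0.5. Cells had a median of 15796 UMIs (unique molecular identifiers, each counting 1 captured RNA molecule) at day 2.5, from 529 to 29275, and of 13670 UMIs at day 0.5, from 501 to 23213. No cell name was shared between libraries and no 2 cells had identical counts. Since no separate cultures are named in the labels, a day counts as 1 sample and no test between the days could be made. Levels are UMIs summed over the cells of a day per 1000000 UMIs (CPM), and 95% intervals cover counting error only, not the spread between cells or cultures. In a sum over cells, fewer cells that express a gene and less RNA per cell cannot be told apart, so shares of cells are given beside the levels. The deposited cell table carries 3 batch labels of unstated meaning: batch 3 held 83 cells of day 2.5, batch 2 held 243 cells (50.2% of day 2.5 and 49.8% of day 0.5), and batch 1 held 80 cells of day 0.5. Of the 6 pluripotency markers, 5 were called lower at day 2.5 by the rule given below, against 20.4% of all measured genes. Sall4 was not called, at 126.8 CPM at day 2.5 and 133.5 CPM at day 0.5. Pou5f1, called lower, was at 13.5 CPM at day 2.5 and 31.3 CPM at day 0.5. The markers of primitive streak, primitive endoderm, trophectoderm and fibroblasts summed to between 5.02 and 17.9 CPM per list at day 2.5 and between 6.02 and 19.4 CPM at day 0.5. Among those lists, Gsc, Mesp1, Foxa2 and Sox7 were at 0 UMIs in both days. The neuroectoderm list summed to 152.4 CPM at day 2.5 and 91.1 CPM at day 0.5, of which Otx2, also a gene of the epiblast, made up 148.5 CPM at day 2.5 and 82.5 CPM at day 0.5, and the part of such cells in the results was not tested.

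In canonical Wnt signalling, Porcn adds the lipid that Wnt ligands need for secretion, and a ligand bound to Frizzled and Lrp receptors stops a complex of Axin, Apc and Gsk3 from marking β-catenin for destruction. β-catenin then enters the nucleus and binds the HMG-box factors Lef1, Tcf7, Tcf7l1 and Tcf7l2 on DNA, and Axin2, Nkd1, Notum and Rnf43 are target genes that feed back on the signal. In mouse embryonic stem cells an inhibitor of GSK3 replaces the ligand, and a main consequence known from such cells is relief of the repression that Tcf7l1 (also called Tcf3) places on Esrrb, Nanog, Klf2 and Tfcp2l1.

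To show what TCF and LEF factors read, the promoter windows of RefSeq (GRCm38.p6) were searched on both strands for the TCF/LEF motif in its forms CTTTGAA, with the variant ending CTTTGAT, then the form CTTTGTA, and the form CTTTGTT, from 250 bases before to 30 bases after each annotated start. Windows were found for 9 of the 10 genes, and 3 of their 15 windows held a match, against 16.1% of all 32851 windows. The 3 matches lay at the start of Wnt3 and at later alternative starts of Lef1 and Tcf7l2, while the windows at the first starts of Lef1 and Tcf7l2 held none. The windows of Wnt3 and of the alternative start of Lef1 are shown because both genes differed between the days and hold a match, and that of Axin2 because it is the usual readout of the pathway and holds none. All 3 windows are on the plus strand, and capitals mark the match. That of Axin2 lies at an annotated start inside its gene span, which begins at base 108917828.
Wnt3, chr11:103773925-103774204: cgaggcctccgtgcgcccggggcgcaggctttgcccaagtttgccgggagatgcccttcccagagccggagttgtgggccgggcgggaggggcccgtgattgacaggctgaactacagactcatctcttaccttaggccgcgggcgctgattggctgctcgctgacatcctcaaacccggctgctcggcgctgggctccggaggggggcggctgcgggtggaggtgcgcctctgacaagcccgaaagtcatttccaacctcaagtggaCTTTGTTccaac
Lef1, alternative start, chr3:131156044-131156323: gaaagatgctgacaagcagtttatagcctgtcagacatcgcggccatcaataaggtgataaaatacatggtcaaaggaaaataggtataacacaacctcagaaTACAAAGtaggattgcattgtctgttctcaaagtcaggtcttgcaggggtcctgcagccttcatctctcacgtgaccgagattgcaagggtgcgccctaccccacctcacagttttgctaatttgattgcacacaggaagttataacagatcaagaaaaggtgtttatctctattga
Axin2, chr11:108920099-108920378: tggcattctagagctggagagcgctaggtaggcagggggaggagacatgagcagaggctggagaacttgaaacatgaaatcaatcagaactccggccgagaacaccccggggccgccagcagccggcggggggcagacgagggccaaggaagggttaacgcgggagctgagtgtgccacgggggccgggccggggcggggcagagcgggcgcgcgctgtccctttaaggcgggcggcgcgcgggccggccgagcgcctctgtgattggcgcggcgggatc
The match of Wnt3, CTTTGTT, begins 18 bases after the first base of the gene, and that of Lef1, TACAAAG (the reverse complement of CTTTGTA), lies before the alternative start. A match is a description of these letters, and a window with none says only that they are not in it.

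Of the 10 genes, 3 were higher at day 2.5 (Wnt3, Lgr4 and Nkd1), 3 were lower (Porcn, Lef1 and Axin2) and 4 were neither (Tcf7, Tcf7l1, Tcf7l2 and Ctnnb1). The call asked for at least 20 UMIs over both days and a level 1.5 times that of the other day or more, with the same sign among cells named with the letter A and among those named with the letter B, which all lie in batch 2. By this rule 19.4% of 13777 genes were higher and 20.4% were lower, so 3 of 10 in each direction is not far above the shares over all genes, and the counts alone do not set the list apart. The changes ran from 36.5-fold lower for Porcn to 18.3-fold higher for Wnt3. Within batch 2, which held both days, all 6 calls were the same. For Wnt3 and for Nkd1, the sign in letter B rests on 1 UMI at day 2.5 and 0 at day 0.5, too few to bear out the calls.

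**Figure D1:**
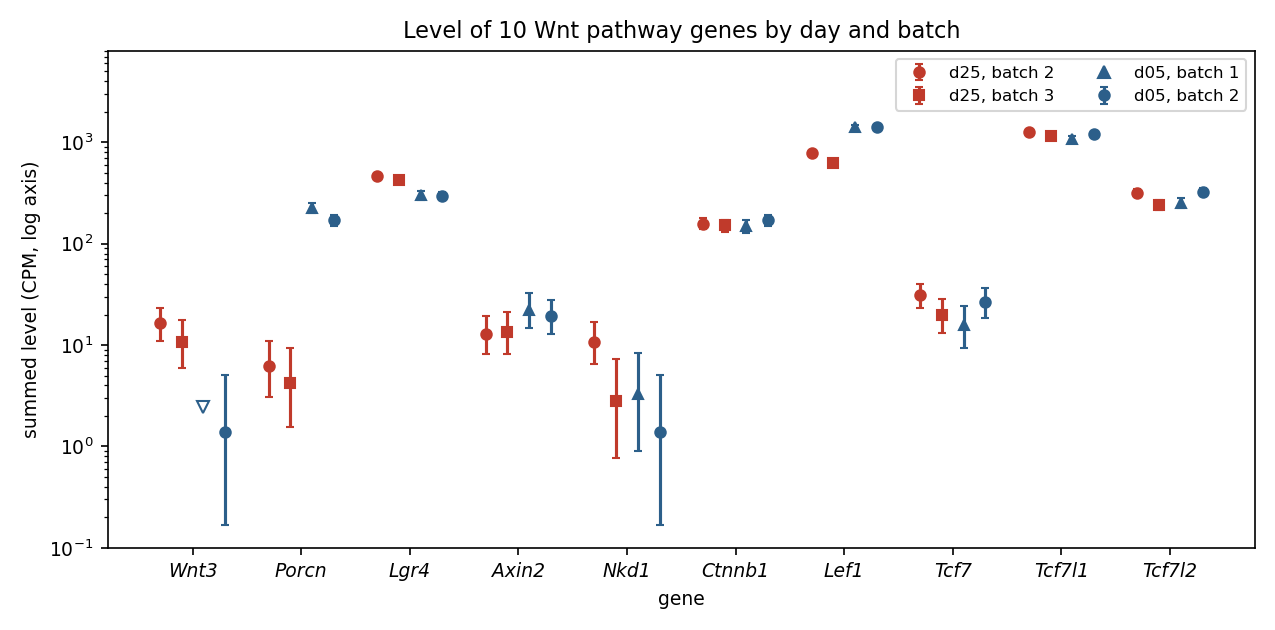
Summed level (CPM, log axis) of the 10 genes in each batch, with day 2.5 (d25, red) left of day 0.5 (d05, blue) and bars for 95% Poisson intervals (counting error only). The open triangle marks Wnt3 in batch 1 at day 0.5, which had 0 UMIs and is drawn at the limit of 3 counts, 2.47 CPM. Both batches of day 2.5 lie below both batches of day 0.5 for Porcn and Lef1 and above them for Wnt3 and Lgr4, while for Nkd1 batch 3 at day 2.5 lies at the level of day 0.5.

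Wnt3, the ligand that patterns the primitive streak of the mouse embryo, was nearly absent at day 0.5 and present in a minority of cells at day 2.5. It had 44 UMIs at day 2.5 and 2 UMIs at day 0.5, or 13.8 CPM at day 2.5 and 0.753 CPM at day 0.5. The ratio was 18.3, with an interval of 4.78 to 156.2 that is wide because day 0.5 rests on 2 UMIs. In single batches Wnt3 was at 16.3 CPM (batch 2) and 10.6 CPM (batch 3) at day 2.5, and at 0 CPM (batch 1) and 1.39 CPM (batch 2) at day 0.5. Batch 3 was thus at least 4.31-fold above batch 1, with the 0 of batch 1 set to 3 counts. By letter, Wnt3 at day 2.5 was at 15.1 CPM in letter A and 2.97 CPM in letter B, the latter on 1 UMI. UMIs of Wnt3 were found in 32 cells at day 2.5 (15.6%, Clopper-Pearson interval 10.9 to 21.3%) and in 2 cells at day 0.5 (0.995%, 0.121 to 3.55%). No cell had more than 3 UMIs of Wnt3 at day 2.5 or more than 1 at day 0.5. Its gene overlaps the end of Wnt9b by 1098 bases, but Wnt9b had 1 UMI in each day.

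Porcn, the acyltransferase of the endoplasmic reticulum through which Wnt ligands gain their lipid, had the largest difference of the 10. It had 17 UMIs at day 2.5 and 517.5 UMIs at day 0.5, or 5.34 CPM at day 2.5 (95% interval 3.11 to 8.54) and 194.8 CPM at day 0.5 (178.4 to 212.4), which is 36.5-fold lower at day 2.5 (22.6 to 63.2). Of all measured genes, 0.0581% had a lower log2 change. By batch, Porcn was at 6.20 CPM (batch 2) and 4.25 CPM (batch 3) at day 2.5, and at 225.003 CPM (batch 1) and 169.4 CPM (batch 2) at day 0.5. It was found in 11 cells at day 2.5 (5.37%, 2.71 to 9.40%) and in 76.1% of cells at day 0.5 (69.6 to 81.8%). Thinning brought every cell to 5000 UMIs and dropped 7 shallower cells of each day (392 stayed, 50.5% of them of day 2.5), and the shares were then 1.52% at day 2.5 and 56.7% at day 0.5. The difference was present in each cell cycle class with an S, G1 or G2 label: the ratio was 0.0221 in G1 (0.00704 to 0.0535) and 0.0394 in Mid-S (0.0178 to 0.0759). Early-S, Late-S and G2 had 1 UMI each at day 2.5, with ratios from 0.0200 to 0.0227 and intervals that lie between 0.00050 and 0.164. Thus Wnt3 and the enzyme that lipidates it had opposite differences, the ligand higher and Porcn lower at day 2.5.

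Porcn lies on the X chromosome (GRCm38 chrX:8193846-8206548), so its UMIs could be split by parent in the authors' allele table. That table holds 308 of the cells, 39.6% of them of day 2.5. Its day 2.5 cells had 7 UMIs of Porcn and none of them was assigned to an allele. Its day 0.5 cells had 511.5 UMIs, of which 38 were assigned to the C57BL/6J allele and 28 to the CAST/EiJ allele. The C57BL/6J share at day 0.5 was 57.6% (Clopper-Pearson interval 44.8 to 69.7%), and 44 cells had an allelic UMI, 3 of them of both alleles. Both alleles were thus represented at day 0.5, and the day 2.5 level was too low to split.

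**Figure D2:**
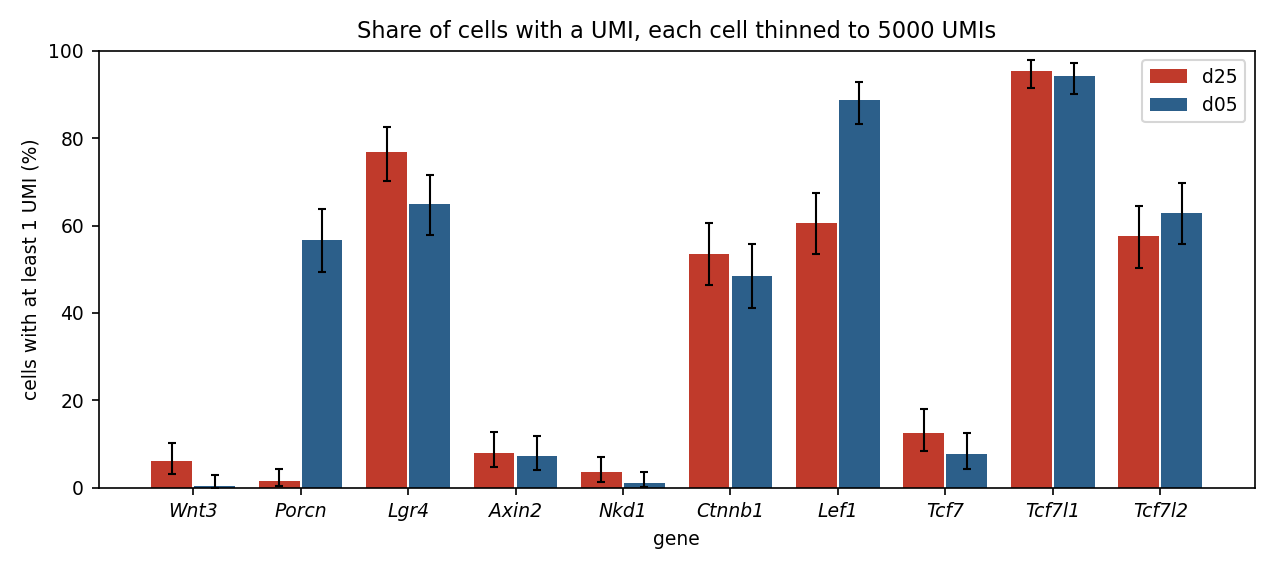
Share of cells with at least 1 UMI of each of the 10 genes after thinning each cell to 5000 UMIs, at day 2.5 (d25, red) and at day 0.5 (d05, blue), 392 cells in all, with Clopper-Pearson 95% intervals as bars. Porcn was found in 1.52% of cells at day 2.5 and 56.7% at day 0.5, Lef1 in 60.6% at day 2.5 and 88.7% at day 0.5, and Tcf7l1 in 95.5% at day 2.5 and 94.3% at day 0.5.

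Lgr4, a receptor for R-spondins that protects Frizzled receptors at the membrane, was at 447 CPM (424 to 471) at day 2.5 and at 298 CPM (277 to 319) at day 0.5. The ratio of 1.50 (1.38 to 1.64) is just past the threshold, and it was 1.45 in letter A and 1.94 in letter B. By batch it was at 467 CPM (batch 2) and 422 CPM (batch 3) at day 2.5, and at 301 CPM (batch 1) and 295 CPM (batch 2) at day 0.5, so the batches of the days did not overlap. Lgr4 was found in 93.7% of cells at day 2.5 (89.4 to 96.6%) and in 81.1% at day 0.5 (74.99 to 86.3%), and after thinning in 76.8% at day 2.5 and 64.9% at day 0.5. Its ratio was above 1 in each of the 6 cell cycle classes present in both days, from 1.23 (M) to 1.97 (G2). The interval held 1 in M (0.628 to 2.32), on 7 cells of day 2.5 and 15 of day 0.5. In G2 it was 1.09 to 3.93, on 18 cells of day 2.5 and 6 of day 0.5.

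Axin2, a scaffold of the destruction complex and a direct target of β-catenin, had 42 UMIs at day 2.5 and 55 UMIs at day 0.5. Its level was 13.2 CPM (9.50 to 17.8) at day 2.5 and 20.7 CPM (15.6 to 26.95) at day 0.5, a ratio of 0.637 (0.416 to 0.969). The interval within batch 2 held 1 (ratio 0.667, 0.367 to 1.20). It was found in 15.1% of cells at day 2.5 and in 19.9% at day 0.5, and the difference of -4.78 percentage points had a Newcombe interval of -12.2 to 2.64. After thinning, its log2 change was 0.12, so its direction depends on this setting.

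Nkd1, which binds Dishevelled, dampens the signal and is itself a target gene, had 23 UMIs at day 2.5 and 6 UMIs at day 0.5, a ratio of 3.20 (1.26 to 9.59). Its level was 10.7 CPM (batch 2) and 2.83 CPM (batch 3) at day 2.5, and 3.29 CPM (batch 1) and 1.39 CPM (batch 2) at day 0.5. The difference therefore lay in batch 2 alone: batch 3 at day 2.5, with 4 UMIs, overlapped both batches of day 0.5. Axin2 and Nkd1, both feedback antagonists and both known targets, thus had opposite differences, each on few UMIs.

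Ctnnb1, the gene of β-catenin itself, was at 154.9 CPM (141.5 to 169.2) at day 2.5 and at 159.8 CPM (144.98 to 175.8) at day 0.5, a ratio of 0.969 (0.849 to 1.11). It was found in 81.95% of cells at day 2.5 and in 77.6% at day 0.5, with a difference of 4.34 percentage points (-3.49 to 12.1). These values are of RNA, and the amount of β-catenin protein, which GSK3 controls, was not measured.

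Lef1, a factor of the family and, like Tcf7, itself a known target gene, was at 712 CPM (683 to 742) at day 2.5 and at 1409 CPM (1364 to 1455) at day 0.5, a ratio of 0.505 (0.480 to 0.533). By batch it was at 785 CPM (batch 2) and 621 CPM (batch 3) at day 2.5, and at 1419 CPM (batch 1) and 1401 CPM (batch 2) at day 0.5. The batches of day 0.5 were alike, while those of day 2.5 differed by more than counting error (batch 3 over batch 2 0.791, 0.726 to 0.861), and both lay below day 0.5. Lef1 was found in 70.2% of cells at day 2.5 (63.5 to 76.4%) and in 94.03% at day 0.5 (89.8 to 96.9%), and after thinning in 60.6% at day 2.5 and 88.7% at day 0.5. Cells outside the allele table had less Lef1 than those inside it. At day 2.5 the level was 488 CPM in 83 cells outside and 871 CPM in the cells inside. At day 0.5 it was 249 CPM in 15 cells outside, which are the 15 cells of that day classed as M, and 1460 CPM in the cells inside. The ratio of the days was 0.596 (0.562 to 0.632) inside the table and 1.96 (1.34 to 2.99) outside it, where the cells of day 2.5 were of all classes and 7 of them were classed as M.

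Lef1 was spread unevenly over the cells, and more so at day 2.5. The median cell had 3 UMIs at day 2.5 and 13 UMIs at day 0.5, yet the highest cell had 129.5 UMIs at day 2.5 and 104.5 at day 0.5. The tenth of cells with most Lef1 held 54.6% of its UMIs at day 2.5 and 31.5% at day 0.5. In thinned cells the variance over the mean, which is 1 for counts that vary by sampling alone, was 11.04 at day 2.5 and 5.46 at day 0.5. That placed Lef1 rank 5 of 1227 genes with a mean of at least 1 UMI at day 2.5 and rank 7 of 1213 such genes at day 0.5, where the median gene was at 1.54 at day 2.5 and 1.48 at day 0.5. The ranks were not matched on the mean, which for Lef1 was 3.60 UMIs at day 2.5 and 6.99 at day 0.5, so they partly reflect abundance. At the same mean, counts with sampling error alone would have left 97.3% of cells with a UMI at day 2.5 and 99.9% at day 0.5, against the 60.6% at day 2.5 and 88.7% at day 0.5 that were found. Tcf7l1, with a mean of 6.14 UMIs at day 2.5 and 5.66 at day 0.5, had a variance over the mean of 2.23 at day 2.5 and 3.28 at day 0.5. The uneven spread was present within each batch (12.9 in batch 2 and 7.04 in batch 3 at day 2.5, 4.94 in batch 1 and 5.78 in batch 2 at day 0.5). It was also present within 1 cell cycle class, at 9.12 among 61 Mid-S cells of day 2.5 and 5.09 among 87 Mid-S cells of day 0.5.

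**Figure D3:**
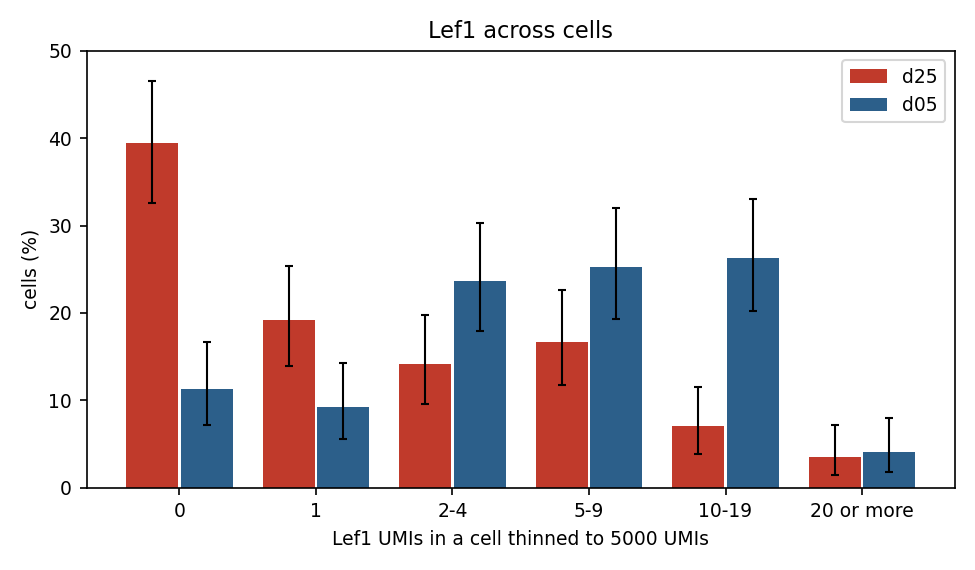
Share of cells by their number of Lef1 UMIs after thinning to 5000 UMIs per cell, at day 2.5 (d25, red) and at day 0.5 (d05, blue), 392 cells in all, with Clopper-Pearson 95% intervals as bars. Cells with none made up 39.4% at day 2.5 and 11.3% at day 0.5, and cells with 10 to 19 made up 7.07% at day 2.5 and 26.3% at day 0.5, while those with 20 or more made up 3.54% at day 2.5 and 4.12% at day 0.5.

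The share of cells with no Lef1 UMI was thus higher at day 2.5 and that with intermediate counts lower, while the few cells at the top were about as frequent in both days (7 cells at day 2.5 and 8 at day 0.5). Within day 2.5, cells above the median of the authors' pseudotime had 809 CPM of Lef1 and those below it 935 CPM, a ratio of 0.866 (0.784 to 0.955). At day 0.5 the 93 cells above the median of that day had 1418 CPM and the 93 others 1505 CPM (0.942, 0.883 to 1.01). Which genes the pseudotime was built on is not stated, so this is a description only.

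Tcf7l1, the main repressor of the family in these cells, was the most abundant of the 4 at day 2.5. It was at 1227 CPM (1189 to 1266) at day 2.5 and at 1158 CPM (1118 to 1200) at day 0.5, a ratio of 1.06 (1.01 to 1.11) and so not called. It was found in 96.1% of cells at day 2.5 and in 96.02% at day 0.5. By batch it was at 1278 CPM (batch 2) and 1163 CPM (batch 3) at day 2.5, and at 1090 CPM (batch 1) and 1216 CPM (batch 2) at day 0.5, which overlap. Tcf7l2 was at 285 CPM at day 2.5 and at 292 CPM at day 0.5 (ratio 0.977, 0.886 to 1.08), and it was found in 79.5% of cells at day 2.5 and in 78.1% at day 0.5. Tcf7, a known activating member, had 83 UMIs at day 2.5 and 57 UMIs at day 0.5 (ratio 1.21, 0.856 to 1.73).

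Per kilobase of gene span, a scale that sets genes of different lengths beside each other where most UMIs come from introns, the balance of Lef1 and Tcf7l1 turned round between the days. Lef1 was at 6.25 CPM per kb at day 2.5 (5.99 to 6.51) and at 12.4 CPM per kb at day 0.5 (11.96 to 12.8), while Tcf7l1 was at 7.54 at day 2.5 (7.31 to 7.78) and 7.12 at day 0.5 (6.87 to 7.38). Per kb, the level of Lef1 divided by that of Tcf7l1 came to 0.828 at day 2.5 (0.786 to 0.872) and to 1.74 at day 0.5 (1.65 to 1.82). The batch with both days gave 0.876 (0.819 to 0.937) at day 2.5 and 1.64 (1.54 to 1.75) at day 0.5. Of the 4 factors together, counted per kb, Lef1 made up 39.1% at day 2.5 and 57.3% at day 0.5, and Tcf7l1 47.2% at day 2.5 and 32.997% at day 0.5. Tcf7l2 made up 9.30% at day 2.5 and 7.05% at day 0.5, and Tcf7 4.42% at day 2.5 and 2.70% at day 0.5.

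Over all 10 genes, the order per kb at day 2.5 was Tcf7l1, Lef1, Ctnnb1 (5.71 CPM per kb), Lgr4 (4.63), Tcf7l2 (1.49), Tcf7 (0.707), Porcn (0.420), Axin2 (0.400), Wnt3 (0.315) and Nkd1 (0.0982). The intervals of Lef1 and Ctnnb1 overlap there, as do those of Tcf7 and Porcn and those of Porcn, Axin2 and Wnt3. At day 0.5 the order was Porcn (15.3 CPM per kb), Lef1, Tcf7l1, Ctnnb1 (5.90), Lgr4 (3.08), Tcf7l2 (1.52), Axin2 (0.628), Tcf7 (0.582), Nkd1 (0.0307) and Wnt3 (0.0172). The intervals of Axin2 and Tcf7 overlap, and so do those of Nkd1 and Wnt3. Per kb, Porcn was thus first of the 10 at day 0.5 and among the lowest at day 2.5. Its first place depends on the division by its span of 12.7 kb, the shortest of the 10. In CPM, Porcn at day 0.5 (194.8) lay below Lef1 (1409), Tcf7l1 (1158), Lgr4 (298) and Tcf7l2 (292).

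The deposited cell cycle classes differed in frequency between the days, with 82 G1 cells at day 2.5 and 41 at day 0.5, and 62 Mid-S cells at day 2.5 and 87 at day 0.5, and their part in the differences was not tested beyond the values by class. Lef1 was lower at day 2.5 in each of the 6 classes present in both days, with ratios of 0.764 in G1, 0.453 in Early-S, 0.446 in Mid-S, 0.441 in Late-S, 0.711 in G2 and 0.907 in M. The interval held 1 in M, on 7 cells of day 2.5 and 15 of day 0.5. At day 0.5 the level of Lef1 was 1730 CPM in Mid-S and 1019 CPM in G1, against 771 CPM in Mid-S and 778 CPM in G1 at day 2.5. Cells classed as M had low levels of several factors at day 0.5, with Lef1 at the 249 CPM given above for cells outside the allele table, which are the same cells, and Tcf7l1 at 488 CPM, while Ctnnb1 was at 253 CPM there, its highest class of that day.

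**Figure D4:**
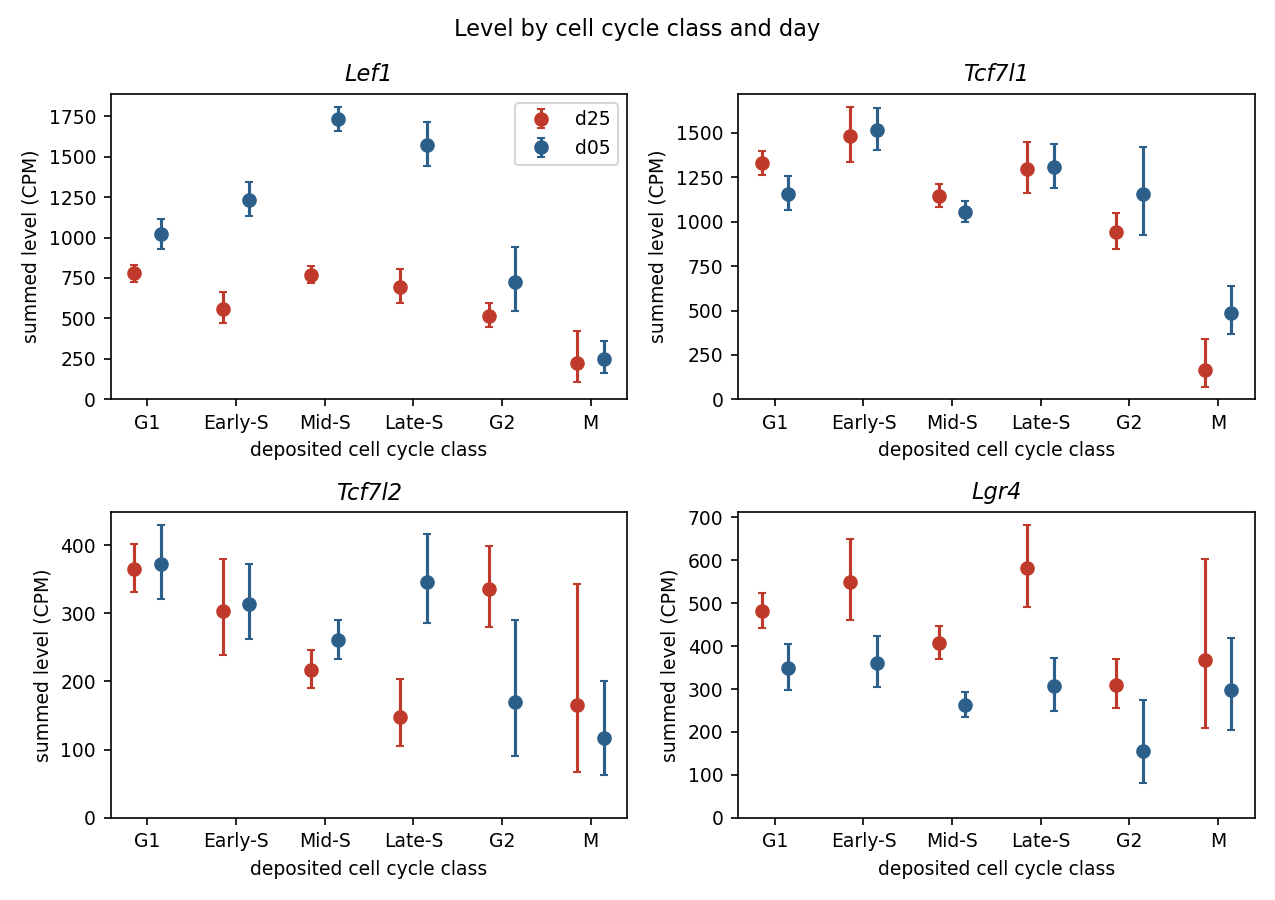
Summed level (CPM) of Lef1, Tcf7l1, Tcf7l2 and Lgr4 in the 6 deposited cell cycle classes present in both days, with day 2.5 (d25, red) left of day 0.5 (d05, blue) and bars for 95% Poisson intervals (counting error only). Lef1 lies lower and Lgr4 higher at day 2.5 in each class, although in M the interval of the ratio held 1 for both. Tcf7l1 and Tcf7l2 differ in both directions.

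Across single thinned cells the pairs of the better measured genes had Spearman's rho between -0.136 and 0.120 within a day, which in counts this sparse is no finding. Likeness was measured over the 10 groups of 1 day and 1 cell cycle class with at least 10 cells. These were G1, Early-S, Mid-S and Late-S of both days, G2 of day 2.5 alone and M of day 0.5 alone, so class and day are partly mixed. Among 5530 genes with at least 200 UMIs, the patterns most like that of Lef1 were C2cd5 (Pearson's r of log2 levels 0.98), Rnf220 (0.95) and Rnf165 (0.94). Those most like Porcn were Gm19200, Tns3 and Mapt (each 0.99), and Tns3 was at 102.6 CPM at day 2.5 and 783 CPM at day 0.5. Those most like Tcf7l1 were Gtf2ird1, Pknox2 and Gm37736, those most like Tcf7l2 were Samd4, Sos1 and Man1a2, those most like Lgr4 were Smarcc1, Tmem189 and Rufy2, and those most like Ctnnb1 were H2afz, Ssb and Ccne1. The groups share the 2 days, so any gene with a difference of the same kind between them scores high.

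The wider pathway, the 10 genes and 98 others of the table grouped by role, leaned upward at day 2.5. Of 70 measured members, 29 were higher (41.4%), 9 were lower (12.9%) and 32 were not called. Over all 13777 measured genes, 19.4% were higher and 20.4% lower. The median log2 change of the members was 0.31, against -0.06 over all measured genes. Within batch 2, 36.5% of 63 measured members were higher and 11.1% lower, against 19.8% higher and 21.7% lower among all genes there. Without the 10 genes, 26 of 60 were higher and 6 lower, with a median of 0.34. The list was chosen with earlier results known, and this is a description of it with no test.

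Of 14 measured receptors, 10 were higher and 1 was lower, against 19.4% higher and 20.4% lower over all genes. Among the 10, the intervals of Fzd7 (ratio 1.56, 0.803 to 3.13) and Lgr5 (1.72, 0.936 to 3.27) held 1 over all cells. Within batch 2, those of Fzd2 (3.52, 0.966 to 19.2) and Lgr6 (1.58, 0.669 to 4.00) held 1 as well. Those of Fzd3, Fzd6, Lrp5, Lgr4, Ror1 and Ptk7 lay above 1 both over all cells and within batch 2. Ror1, a receptor tyrosine kinase for Wnt5a, was at 781 CPM at day 2.5 and 49.3 CPM at day 0.5 (ratio 15.8, 13.3 to 19.03). Ptk7, a pseudokinase of planar polarity signalling, was at 559 CPM at day 2.5 and 230.8 CPM at day 0.5, and Lrp5, a co-receptor of Frizzled, was at 132.6 CPM at day 2.5 and 50.3 CPM at day 0.5. Lrp6, the other such co-receptor, was at 186.8 CPM at day 2.5 and 140.6 CPM at day 0.5 and was not called, nor was Ror2 at 587 CPM at day 2.5 and 531 CPM at day 0.5. Fzd5 was the lower one, at 8.47 CPM at day 2.5 and 12.8 CPM at day 0.5, on 27 UMIs at day 2.5 and 34 at day 0.5. The interval of its ratio held 1 over all cells (0.662, 0.384 to 1.13) and within batch 2 (0.710, 0.321 to 1.55).

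Of 7 measured ligands, 4 were higher and 2 lower, against 19.4% higher and 20.4% lower over all genes. Wnt8a was at 16.9 CPM at day 2.5 and 1.51 CPM at day 0.5 (ratio 11.3, 4.15 to 42.8), the second ligand beside Wnt3 that was nearly absent early. Wnt5b was at 38.8 CPM at day 2.5 and 23.5 CPM at day 0.5, and Wnt9a was called higher on 14 UMIs at day 2.5 and 6.5 at day 0.5 (ratio 1.80, 0.664 to 5.46), but within batch 2 it was at 2.82 CPM at day 2.5 and 3.82 CPM at day 0.5. The lower ones were Wnt4 (7.22 CPM at day 2.5 and 12.05 CPM at day 0.5) and Wnt7b (2.20 CPM at day 2.5 and 5.65 CPM at day 0.5). Wnt4 had 23 UMIs at day 2.5 and 32 at day 0.5 (ratio 0.599, 0.335 to 1.06). Wnt7b had 7 UMIs at day 2.5 and 15 at day 0.5 (ratio 0.389, 0.134 to 1.01), so both intervals held 1. Wls, the carrier that takes lipidated ligands to the cell surface, was at 106.4 CPM at day 2.5 and 33.9 CPM at day 0.5 (ratio 3.14, 2.48 to 4.01), the opposite direction to Porcn. Of the R-spondins, ligands of Lgr4, Rspo1 and Rspo3 were higher as well, with Rspo3 at 14.9 CPM at day 2.5 and 5.27 CPM at day 0.5. Within batch 2 the ratio was 4.87 (1.42 to 25.8) for Rspo1. For Rspo3 it was 1.48 there (0.674 to 3.41), just under the threshold and with an interval that held 1. Rspo2 was called higher on 13.5 UMIs at day 2.5 and 7 at day 0.5 (ratio 1.61, 0.602 to 4.73), but within batch 2 it was at 2.54 CPM at day 2.5 and 3.47 CPM at day 0.5.

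Among membrane and secreted inhibitors 3 of 8 were higher and 1 was lower, against 19.4% higher and 20.4% lower over all genes. Notum, an enzyme that removes the lipid which Porcn adds, was at 0.785 CPM at day 2.5 and 35.2 CPM at day 0.5, on 2.5 UMIs at day 2.5 and 93.5 at day 0.5, which is 44.9-fold lower at day 2.5 (13.6 to 274). Kremen1 was at 43.5 CPM at day 2.5 and 16.9 CPM at day 0.5, and Rnf43, a ligase that removes Frizzled, was at 12.6 CPM at day 2.5 and 5.27 CPM at day 0.5. Its relative Znrf3 was at 765 CPM at day 2.5 and 662 CPM at day 0.5 and was not called. Both lipid enzymes, Porcn and Notum, were thus lower at day 2.5. In the cytoplasm 5 of 18 measured members were higher, not far above the 19.4% of all genes. Axin2 alone of the 18 was lower, against 20.4% of all genes. Gsk3b, a gene of GSK3, the kinase whose inhibitor was withdrawn, was at 336 CPM at day 2.5 and 176.6 CPM at day 0.5 (ratio 1.90, 1.71 to 2.13). The other GSK3 gene, Gsk3a, was not called. Dvl1 was at 61.2 CPM at day 2.5 and 30.1 CPM at day 0.5. Csnk1a1, the priming kinase for β-catenin, was at 455 CPM at day 2.5 and 448 CPM at day 0.5.

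**Figure D5:**
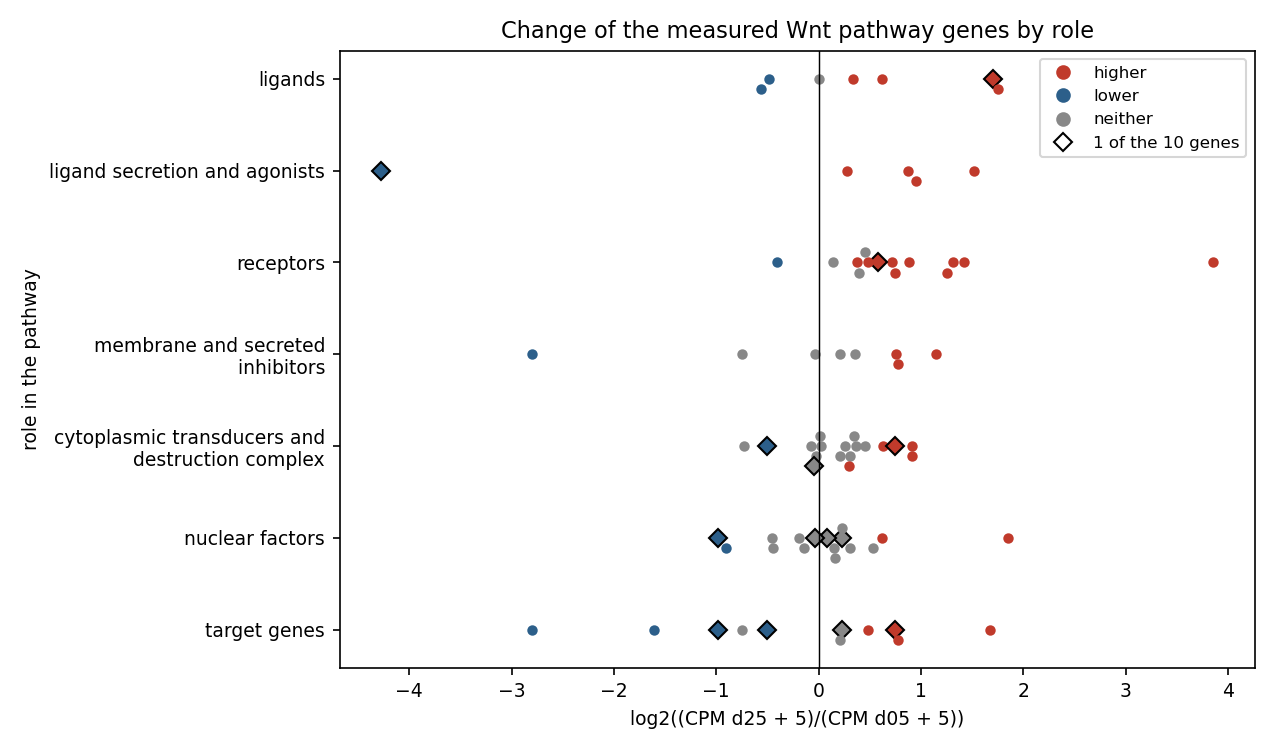
Change of each of the 70 measured Wnt pathway genes on the log2((CPM d25 + 5)/(CPM d05 + 5)) scale, 1 row per role, with genes called higher at day 2.5 in red, lower in blue and neither in grey, and diamonds for the 10 genes. A gene with 2 roles is drawn in both rows, and the vertical offset within a row only keeps points apart. Receptors lie mostly right of 0, and Porcn is the leftmost point.

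Of 16 measured nuclear factors, 2 were higher and 2 lower, both below the shares over all genes (19.4% higher and 20.4% lower). Bcl9, which links β-catenin to Pygo proteins, was at 106.4 CPM at day 2.5 and 25.98 CPM at day 0.5 (ratio 4.10, 3.15 to 5.39), and Bcl9l was higher too. Ctbp2, a co-repressor, was at 527 CPM at day 2.5 and 989 CPM at day 0.5 (0.533, 0.501 to 0.567), a ratio near that of Lef1. Tle4, of the Groucho co-repressors that bind TCF factors, was at 903 CPM at day 2.5 and 1232 CPM at day 0.5 and was not called.

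Known target genes did not share a direction: of 11 measured, 4 were called higher and 4 lower, 3 were not called, and the median log2 change was 0.21. Over all genes, 19.4% were called higher and 20.4% lower. Apcdd1, a target and an inhibitor, was at 7.85 CPM at day 2.5 and 16.6 CPM at day 0.5 (ratio 0.474, 0.278 to 0.791) and missed a call of lower only through the letters. Lower beside Lef1, Axin2 and Notum was Ccnd1, at 35.5 CPM at day 2.5 and 118.2 CPM at day 0.5 (ratio 0.300, 0.240 to 0.373). Higher beside Nkd1, Rnf43 and Lgr5 was Tnfrsf19, at 92.4 CPM at day 2.5 and 25.4 CPM at day 0.5 (3.64, 2.78 to 4.81). Lgr5 had 35 UMIs at day 2.5 and 17 at day 0.5 (ratio 1.72, 0.936 to 3.27). Within batch 2 its ratio was 1.20 (0.488 to 3.07), under the threshold of 1.5. As given above, Nkd1 differed in batch 2 alone, and on the lower side the interval of Axin2 within batch 2 held 1. Sp5 and Dkk1 were at 0 UMIs in both days, and T, which marks the primitive streak, was at 2 UMIs at day 2.5 and 3 at day 0.5. The 4 genes known to be repressed by Tcf7l1 were all lower at day 2.5, although Tcf7l1 itself was not called. Esrrb was at 12.4 CPM at day 2.5 and 339 CPM at day 0.5, Nanog at 22.8 CPM at day 2.5 and 89.99 CPM at day 0.5, and Tfcp2l1 at 5.96 CPM at day 2.5 and 65.7 CPM at day 0.5. Klf2 had 0 UMIs at day 2.5 and 51 at day 0.5, at least 20.4-fold lower with the 0 set to 3 counts over the day. These 4 are also genes of the naive state that LIF and MEK inhibition sustain, and loss of GSK3 inhibition cannot be told apart from loss of those.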

How the data were processed

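RNA of single HiRES cells was analysed in 236 libraries of 1 or 2 cells. The 10 genes and the lists were chosen with earlier results of these data known. The authors deposited expected counts of UMIs for each gene of each cell. As seen in the values, 11.1% of those above 0 are fractions, and they were summed as they stand. The authors' cell tables give counts of UMIs on genes and exons, a pseudotime score, day, batch label and cell cycle class, per the file headers. Per the submitters' processing notes the genome build was GRCm38. The sources used here name no aligner or counting tool and do not say whether strand was used. UMIs on exons were 24.2% of gene UMIs at day 2.5 and 26.3% at day 0.5, so most come from introns and levels depend on gene length. Reads of Tcf7, Tcf7l1, Tcf7l2, Porcn, Wnt3 and Ctnnb1 could not be separated with certainty from genes that overlap them. Of 471 cells in the titles, 406 have deposited RNA counts and 308 have allelic counts. Another 1101 and 893 columns of these tables belong to no sample here and were not used.

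Counts were summed per day and scaled to 1000000 (CPM), and the change is log2((CPM d25 + 5)/(CPM d05 + 5)). Intervals are 95%: exact Poisson (levels), exact conditional binomial (ratios), Clopper-Pearson (shares) and Newcombe (differences between 2 shares). With 1 sample per day no count model was fitted. Doublets were not called. Each cell has its own name in the titles, which does not show that it was single. Values are given per cell cycle class and batch and after thinning each cell to 5000 UMIs. Named genes were the 10 genes, up to 4 called genes per direction with most UMIs in each list and the 2 with most UMIs not called, and the 3 genes most like each of the 10 with at least 200 UMIs. Sp5, Dkk1, T, Gsc, Mesp1, Foxa2, Sox7, Apcdd1, Fzd2, Fzd3, Fzd6, Fzd7, Lgr6 and Gsk3a were named after their values were seen. Gene positions and promoters came from RefSeq. The call rule and intervals were tried on simulated Poisson sums with no spread between cells. That trial cannot say how the intervals behave under the spread between cells of these data. Python 3.11.15, numpy 2.4.6, scipy 1.17.1 and pandas 2.3.3 were used.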

Additional observations from a re-analysis of the deposited data

Results flagged for a closer look

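Tcf7l1 and Tcf7l2, neither of which was called over all cells, had differences in opposite directions in different cell cycle classes, each with a counting interval that left out 1. For Tcf7l1 the ratio of day 2.5 to day 0.5 was 1.15 in G1 (1.04 to 1.27; 82 cells at day 2.5 and 41 at day 0.5) and 1.08 in Mid-S (1.0005 to 1.17), but 0.340 in M (0.131 to 0.750; 7 cells at day 2.5 and 15 at day 0.5). For Tcf7l2 it was 1.98 in G2 (1.12 to 3.82; 18 cells at day 2.5 and 6 at day 0.5), but 0.832 in Mid-S (0.700 to 0.988) and 0.428 in Late-S (0.288 to 0.624; 17 cells at day 2.5 and 20 at day 0.5). In Late-S, Tcf7l2 was at 148.2 CPM at day 2.5 and 346 CPM at day 0.5. The difference between the classes was not tested, the intervals cover counting error and not the spread over cells, and the classes with the opposite ratios hold few cells.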

How the results depend on the processing

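No paired analysis was possible because the labels give no replicate numbers or cultures that link the days. The calls of Porcn, Tcf7l1, Tcf7l2 and Ctnnb1 were the same in all 16 alternatives, and that of Lef1 in 15, with the call ratio of 2 as the exception. Axin2 kept its call in 9, Nkd1 in 11, Wnt3 and Lgr4 in 12 and Tcf7 in 13, and some of the alternatives left Wnt3, Nkd1, Axin2 or Tcf7 under the minimum of UMIs. The log2 change lay between -1.19 and -0.74 for Lef1, -5.27 and -3.96 for Porcn, 0.67 and 3.08 for Wnt3 and 0.48 and 0.94 for Lgr4. Axin2 turned to 0.12 with cells thinned to 5000 UMIs, and Nkd1 to -0.082 with batch 3 against batch 1. The number of the 10 genes called higher was 1 with a minimum of 50 UMIs, 1 in letter B, 1 in the cells of the allele table and 0 with batch 3 against batch 1, where fewer genes reached the minimum and Lgr4 missed the ratio in the last 2. The wider pathway had 15 members called higher after thinning (28.3% of those measured, against 19.1% of all genes) and 15 in letter B (41.7% against 23.5%). At a call ratio of 2 it had 18 higher (25.7% against 12.4%) and 4 lower (5.71% against 11.8%), and 1 of the 10 genes, Porcn, was lower. The setting without cells classed as M was chosen after seeing the data and changed no call of the 10 genes. Scaling by median ratios put the median log2 change of all measured genes at 0.0024, against -0.065 without it, and it ended the call of Axin2. Depth limits Wnt3, Nkd1, Axin2 and Tcf7, which have few UMIs, and differences between the days have no check by cultures.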
